A study of Homo sapiens with 12 samples.

Results

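The ZNF-named zinc finger genes examined here are the genes of the deposited count table whose Ensembl identifier maps to a symbol of the form ZNF followed by digits only and whose counts sum to at least 60 over the 12 libraries. Of 169 such symbols in the table, 138 reached this sum and are called members below, and 31 did not. The table used here runs in order of Ensembl identifier and breaks off within a line. The annotation used holds 478 genes with such symbols, and the 309 whose identifiers come after that point were not analysed here, so the members are a part of the family and shares of all counts are shares of this table. The table holds 12584 genes in all, of which 9405 reached the same sum. The members were thus chosen by their sum of counts, so levels are given as a description only. ZNF528 and ZNF701, with 61 and 65 counts, lay just inside the limit, and ZNF92 and ZNF410, with 58 and 56 counts, just outside. The median member had 502 counts over the 12 libraries, and ZNF787 had the most, with 4738.

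The samples were 2 established human lung adenocarcinoma cell lines, A549 and PC9. A549 was kept in RPMI medium and PC9 in DMEM, so comparisons between the lines cannot separate line from medium. Cells of each line were stably infected with the lentiviral vector pCDH-HOXC6, which expresses the homeobox transcription factor HOXC6 (A549-HOXC6 and PC9-HOXC6), or with the empty vector pCDH-NEO (A549-NEO and PC9-NEO), and all groups were selected with neomycin. Poly(A) RNA of 3 libraries per group was sequenced. HOXC6 was driven from the vector and not from its own locus, and the 3 libraries of a group are labelled as independent replicates without saying whether they came from separate infections or clones. The p-values measure the spread between these libraries, which may be technical. The identifier of HOXC6 also comes after the point where the table used here breaks off, so HOXC6 itself was not analysed here and the labels could not be checked on it.

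Zinc finger proteins of this kind carry tandem C2H2 fingers, short loops held by a zinc ion that each contact a few bases of DNA. Many of them also carry a KRAB box, which recruits the corepressor TRIM28 (KAP1) and through it histone methylation and heterochromatin, and this arm of the family is known for silencing transposable elements. Others carry a SCAN domain for pairing with one another, and a smaller set has left the repressor role and acts as promoter-binding activators, chromatin complex subunits or RNA and ribosome factors. KRAB genes lie in large clusters of recent duplicates, most of them on chromosome 19.

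Total counts over the genes of the table ran from 1212053 to 3286577 per library, so 3 counts, the level taken as the floor of detection, equalled 0.915 to 2.57 normalized CPM (counts scaled to a common library size with TMM factors) depending on the library. Floors cover counting error only. Replicates of every group differed by more than counting error, with chi-square values per degree of freedom between 1.58 and 4.26. Epithelial markers (EPCAM, KRT18, CDH1 and CDH3) summed to between 1331 and 6948 CPM in every library, while the blood marker PTPRC stayed at or below 2.14 CPM and the endothelial marker KDR at or below 3.21. Fibroblast markers summed to 19.5 to 75.5 CPM, with COL1A2 and LUM at or below 3 counts in every library.

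Proteins translated from the canonical transcripts were used to group the members. A KRAB box was matched in 59 members, and 36 of these lay among the 51 members on chromosome 19. A SCAN domain was matched in 12 members, 1 of which also had KRAB. KRAB members had a median of 12 fingers, against 6 in the other members, and ZNF142 had the most with 36. In 7 members no finger matched the pattern, among them ZNF503, ZNF365, ZNF330 and ZNF750. The search allows few substitutions, so degenerate KRAB boxes may have been missed. Close duplicates share sequence, and 31 members share exon bases with another gene on the same strand and 64 on the opposite strand. The strand setting of the counting is not given in the sources used here, so counts at such overlaps are uncertain.

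Among the members, ZNF593, a small protein of ribosome biogenesis, had the highest level per kilobase of transcript in A549-NEO, at 53.6 ± 4.75 CPM per kb (SD, n = 3). It was followed by ZNF787 (50.0 ± 3.10), ZNF428 (44.3 ± 0.947), ZNF219 (41.1 ± 3.04), ZNF598 (40.2 ± 0.185) and ZNF444 (37.4 ± 2.32). Neighbours in this order differed by less than their summed SDs, except ZNF787 from ZNF428 and ZNF598 from ZNF444. In PC9-NEO the order began with ZNF787 at 126 ± 8.82 CPM per kb and ZNF444, a SCAN protein, at 94.2 ± 13.2. ZNF593 (53.1 ± 6.57), ZNF446 (40.1 ± 6.58), ZNF598 (36.8 ± 6.19), a ubiquitin ligase that marks collided ribosomes, and ZNF263 (36.3 ± 5.68) came next, and from ZNF593 downward neighbours differed by less than their summed SDs. ZNF446 and ZNF263 share 1420 and 2148 exon bases with another gene on their own strand. The median member stood at 4.04 CPM per kb in A549-NEO and 5.01 in PC9-NEO.

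As a share of all counts in the table, the members made up 0.410%, 0.417% and 0.418% of the A549-NEO libraries and 0.393%, 0.375% and 0.371% of the A549-HOXC6 libraries. In PC9-NEO the shares were 0.479%, 0.473% and 0.467%, and in PC9-HOXC6 0.453%, 0.436% and 0.447%. The share was thus lower in each HOXC6 library than in every NEO library of the same line, and PC9 libraries lay above A549 libraries of the same vector. These shares are given as a description, with no test.

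The first comparison asked which members changed with HOXC6 in A549. Of the 117 members tested, 12 were lower and 1 was higher in A549-HOXC6 when both an adjusted p below 0.05 and a size of the log2 fold change over 1 were required (edgeR's quasi-likelihood test). Over all 8771 genes tested, 5.51% were lower and 1.70% higher by the same rule, against 10.3% and 0.855% of the members tested. Without the fold criterion, 25 members were lower and 9 higher, where the share over all genes was 20.7% lower and 18.9% higher. The members that fell were ZNF182, ZNF195, ZNF143, ZNF146, ZNF148, ZNF558, ZNF614, ZNF711, ZNF175, ZNF451, ZNF638 and ZNF302, and 6 of them carry KRAB. The remaining 104 members tested did not pass, and 21 members had too few counts in A549 to be tested.

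ZNF195 and ZNF638 were the members called lower in both lines. ZNF195, a KRAB protein with 9 matched fingers, spans 3360491 to 3400452 of chromosome 11 (GRCh37), and ZNF638, a large nuclear protein that binds cytidine-rich DNA and RNA, lies on chromosome 2 from 71503691 to 71662199. The 250 bases before a RefSeq transcription start of each are shown. These 2 were the members called lower in both lines, and HOX proteins recognise DNA with the core letters TAAT. They are RefSeq sequences of GRCh38.p14, at chr11:3379147-3379396 on the reverse strand for ZNF195 and chr2:71331532-71331781 on the forward strand for ZNF638, read 5′ to 3′ along the gene, with any TAAT on either strand in capitals.
ZNF195: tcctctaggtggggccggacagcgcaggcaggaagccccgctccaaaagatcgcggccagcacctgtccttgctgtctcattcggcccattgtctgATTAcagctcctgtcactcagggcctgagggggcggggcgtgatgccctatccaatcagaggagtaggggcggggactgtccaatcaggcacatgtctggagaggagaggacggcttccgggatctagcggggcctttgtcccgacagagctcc
ZNF638: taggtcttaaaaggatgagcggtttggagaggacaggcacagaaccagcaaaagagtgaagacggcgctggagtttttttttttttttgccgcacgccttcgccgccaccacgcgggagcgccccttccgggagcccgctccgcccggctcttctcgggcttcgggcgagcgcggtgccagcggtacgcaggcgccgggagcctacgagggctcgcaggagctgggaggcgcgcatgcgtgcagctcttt
The first sequence holds 1 match and the second holds 0. TAAT on either strand was present in 47.4% of all 35116 promoter windows of this length and in 35.9% of the 170 windows of the 122 members that have an entry. A match is a description of the letters in this window and not a site.

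ZNF195 had 35, 44 and 37 counts in A549-NEO against 14, 8 and 3 in A549-HOXC6, or 12.1, 17.7 and 14.5 against 5.09, 6.85 and 1.61 normalized CPM. In PC9-NEO it had 11, 14 and 24 counts and in PC9-HOXC6 5, 4 and 13, or 5.95, 7.05 and 10.2 against 2.41, 2.95 and 3.96 CPM. The groups did not overlap in either line. The log2 fold change of ZNF195 was -1.80 in A549 (standard error, SE, 0.370, adjusted p = 0.000345) and -1.26 in PC9 (SE 0.417, adjusted p = 0.0233; edgeR's quasi-likelihood test). In PC9 the call of ZNF195 was lost with DESeq2, after the GC and length correction described below (-1.06, adjusted p = 0.0737), and without PC9-NEO replicate 3, PC9-HOXC6 replicate 1 or PC9-HOXC6 replicate 2, where the log2 fold change ran from -1.54 to -0.99 over the left-out libraries.

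ZNF638 had 40.9, 51.8 and 53.0 CPM in A549-NEO against 27.3, 28.2 and 15.5 in A549-HOXC6. In PC9 it had 58.9, 62.9 and 55.6 CPM with the empty vector and 16.9, 20.6 and 19.5 with HOXC6. Every HOXC6 library lay below every NEO library of its line. The log2 fold change of ZNF638 was -1.08 in A549 (SE 0.197, adjusted p = 8.62e-05) and -1.64 in PC9 (SE 0.164, adjusted p = 9.32e-09; edgeR's quasi-likelihood test). In A549 it fell under the size of 1 after GC and length correction (-0.58) and without A549-HOXC6 replicate 3 (-0.84).

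Among the other members with the largest falls in A549, promoter-binding factors stood beside KRAB genes. ZNF143, an activator of small nuclear RNA and many protein-coding promoters, lies on chromosome 11 from 9481866 to 9550071. It had 64.5, 58.7 and 57.4 CPM in A549-NEO against 22.2, 14.6 and 23.5 in A549-HOXC6, and the groups lay far apart. The log2 fold change of ZNF143 was -1.57 (SE 0.174, adjusted p = 5.78e-08), and ZNF143 shares 321 exon bases with a gene on the opposite strand.

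ZNF146, a protein of 10 fingers and little else, lies on chromosome 19 from 36705504 to 36729673. Its level was 105, 116 and 106 CPM in A549-NEO against 40.4, 42.8 and 31.0 in A549-HOXC6, with no overlap (log2 fold change -1.57, SE 0.139, adjusted p = 1.06e-09). In PC9 it went from 42.7, 46.3 and 47.5 to 28.9, 23.6 and 21.3 CPM, a log2 fold change of -0.90 (adjusted p = 0.000154) that passed the test but not the fold criterion. ZNF146 thus passed the edgeR test in both lines at different sizes.

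ZNF148, also known as ZBP-89, binds GC-rich promoters. It had 16.7, 14.5 and 16.1 CPM in A549-NEO against 5.46, 5.99 and 5.89 in A549-HOXC6, and 33.5, 30.2 and 32.2 against 15.0, 17.7 and 17.7 CPM in PC9. The levels were separate in both lines, with log2 fold changes of -1.50 (adjusted p = 0.000290) and -0.92 (adjusted p = 0.000649) in edgeR's test. Its transcript has a GC content of 35.6%, and after GC and length correction neither line passed (-0.74, adjusted p = 0.0736, and -0.29, adjusted p = 0.336).

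The KRAB genes ZNF182 and ZNF558 completed the 6 members with the largest falls in A549. ZNF182, on chromosome X, had 16, 16 and 16 counts in A549-NEO against 4, 2 and 4 in A549-HOXC6 (log2 fold change -1.82, SE 0.499, adjusted p = 0.00482; edgeR). In PC9 it was too low for the test, with 7, 5 and 4 counts in PC9-NEO against 1, 0 and 1 in PC9-HOXC6, which is at least 1.75-fold lower against the floor. ZNF558 had 38.2, 45.8 and 25.9 CPM in A549-NEO against 14.9, 13.7 and 15.5 in A549-HOXC6 (log2 fold change -1.35, SE 0.225, adjusted p = 2.85e-05). Both members were separate between the A549 groups.

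ZNF503, a corepressor-binding developmental regulator of the NET family, was the member called higher in A549. Its level was 31.6, 31.3 and 32.2 CPM in A549-NEO against 64.8, 56.5 and 81.3 in A549-HOXC6, with no overlap. The log2 fold change was 1.06 (SE 0.155, adjusted p = 4.65e-06; edgeR). It lay just above the threshold and was 0.93 without A549-HOXC6 replicate 3 and 0.80 after GC and length correction. In PC9 ZNF503 had 62.2, 60.4 and 78.0 CPM with the empty vector and 69.0, 83.3 and 72.0 with HOXC6, and the groups overlapped (log2 fold change 0.14, adjusted p = 0.461).

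**Figure D1:**
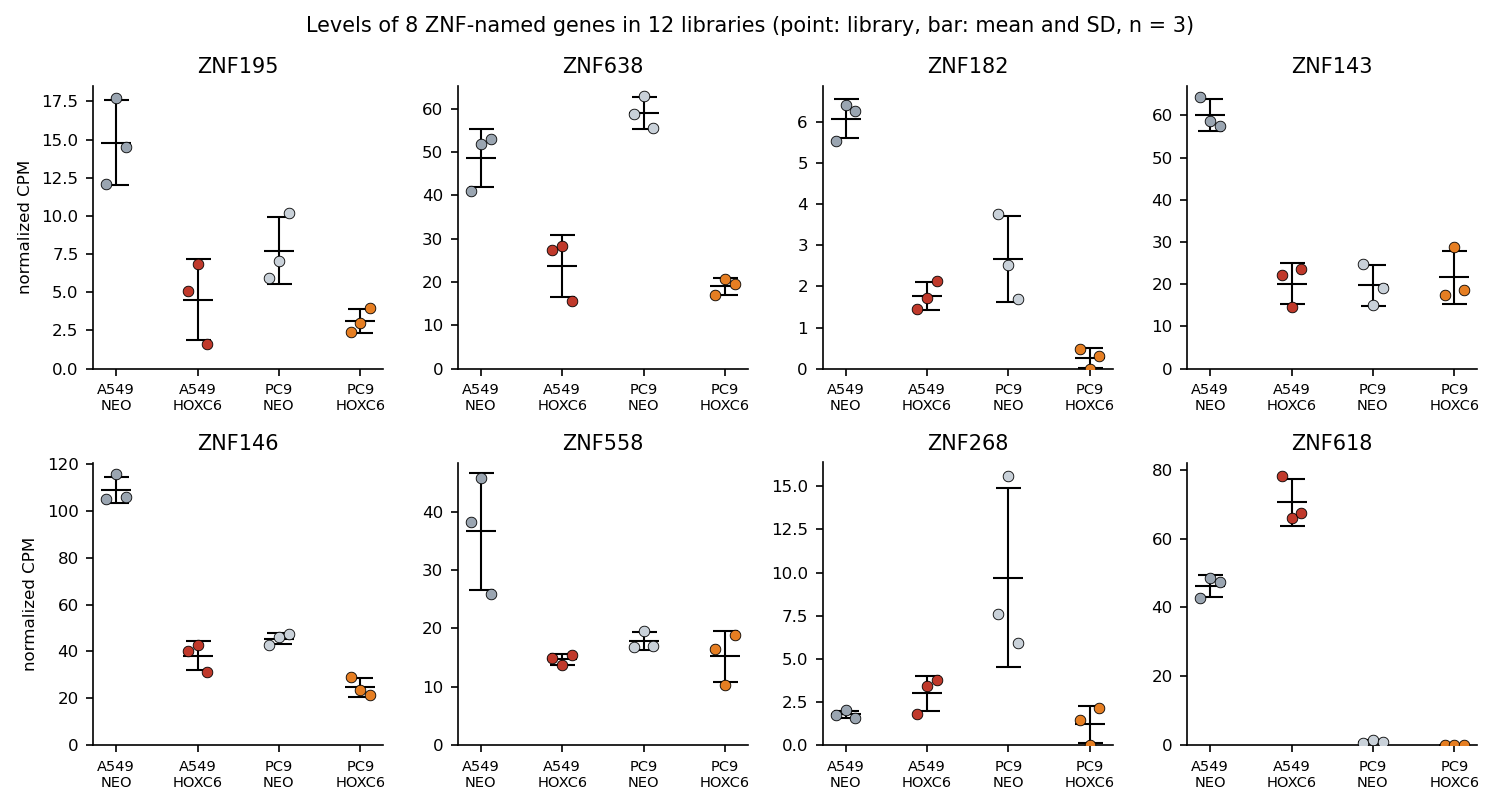
Normalized CPM (vertical axes) of 8 members in the 4 groups (horizontal axes). Points are libraries and bars are mean and SD (n = 3). ZNF195 and ZNF638 are lower with HOXC6 in both lines, and ZNF143 and ZNF558 are lower in A549 while their PC9 groups overlap. ZNF268 has a mean of 3.00 CPM or less in every group but PC9-NEO, and ZNF618 is near 0 in both PC9 groups.

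The second comparison addressed HOXC6 in PC9. Of the 124 members tested, 9 were lower and 0 were higher by the thresholds, 7.26% and 0.00% of those tested, while 3.56% of the 8419 genes tested were lower and 0.962% higher (edgeR's quasi-likelihood test). Without the fold criterion, 17 members were lower and 8 higher, where 14.2% of all genes were lower and 13.3% higher. At an unadjusted p under 0.05, 9 members were above 0 and 0 of these beyond a size of 1, and DESeq2 called 0 members higher and 5 lower. The members that fell were ZNF268, ZNF638, ZNF644, ZNF141, ZNF195, ZNF761, ZNF367, ZNF189 and ZNF12, of which 6 carry KRAB. The other 115 members tested did not pass, and 14 members were too low in PC9 to be tested. Without PC9-HOXC6 replicate 1, 4 members were called lower.

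ZNF268, a KRAB protein with 24 matched fingers on chromosome 12 from 133757995 to 133791418, had 14, 31 and 14 counts in PC9-NEO against 3, 0 and 7 in PC9-HOXC6. These groups did not overlap, and the log2 fold change was -2.66 (SE 0.536, adjusted p = 0.000358; edgeR). In A549 it had 5, 5 and 4 counts in A549-NEO against 5, 4 and 7 in A549-HOXC6, which was too low for the test in that line. ZNF268 shares 841 exon bases with another gene on its strand.

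ZNF644, which belongs to the G9a and GLP histone methyltransferase complex, had 13.5, 16.1 and 17.4 CPM in PC9-NEO against 7.24, 2.21 and 6.10 in PC9-HOXC6 (log2 fold change -1.48, SE 0.326, adjusted p = 0.000856). After GC and length correction it was -0.94 and below the size of 1. ZNF761, a KRAB gene of chromosome 19, had 31.3, 33.2 and 30.1 CPM against 11.1, 15.5 and 16.2 (log2 fold change -1.13, SE 0.211, adjusted p = 0.000143). Both were separate between the PC9 groups, and ZNF761 was -0.84 with the correction and -0.97 without PC9-HOXC6 replicate 1.

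ZNF141, a KRAB gene of chromosome 4, had 15, 12 and 12 counts in PC9-NEO against 4, 5 and 6 in PC9-HOXC6 (log2 fold change -1.46, SE 0.474, adjusted p = 0.0206; edgeR). It did not pass with DESeq2, with the correction (adjusted p = 0.172) or in 4 of the 6 fits without a library, those without PC9-NEO replicate 1 or 2 and those without PC9-HOXC6 replicate 1 or 3. In A549, where it was too low for the test, it had 14, 11 and 8 counts in A549-NEO against 0, 1 and 2 in A549-HOXC6, at least 2.36-fold lower against the floor. Its counts were thus separate in both lines.

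In all, 109 members were tested in both lines, of which 10 were called lower in A549 and 6 in PC9. The 2 in common, ZNF195 and ZNF638, are 20.0% of the A549 list and 33.3% of the PC9 list. For the other genes tested in both lines, the calls in common made up 28.3% of the A549 list and 42.0% of the PC9 list. Of the 109, 37 were below 0 in both lines, 25 above 0 in both, 28 below 0 in A549 alone and 19 in PC9 alone. Without the fold criterion, 8 members were lower in both lines (ZNF195, ZNF638, ZNF146, ZNF148, ZNF281, ZNF614, ZNF207 and ZNF12), 7.34% of the 109, where 8.32% of the 7954 genes tested in both lines were. After GC and length correction 3 of these, ZNF638, ZNF146 and ZNF281, still passed edgeR's test in both lines, 2.75%, against 2.98% of all genes. Of the others, ZNF195 no longer passed in PC9 or ZNF12 in A549 (-0.66, adjusted p = 0.0549), ZNF148 and ZNF614 passed in neither line, and ZNF207 reversed, to 0.41 in A549 and 0.33 in PC9. At any fold, 2 of the 109 were higher in both lines and 1 passed in opposite directions. The matching shares over all genes are not given here. ZNF185, 1 of the 2, was at 0.79 in A549 and 0.58 in PC9, with separate groups (adjusted p = 0.00366 and 0.000139, edgeR's test). After the correction it still passed, at 0.61 and 0.44 (adjusted p = 0.0195 and 0.00342). Across the 109 members Spearman's correlation of the log2 fold changes was 0.309, a description over genes that share libraries and base composition.

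**Figure D2:**
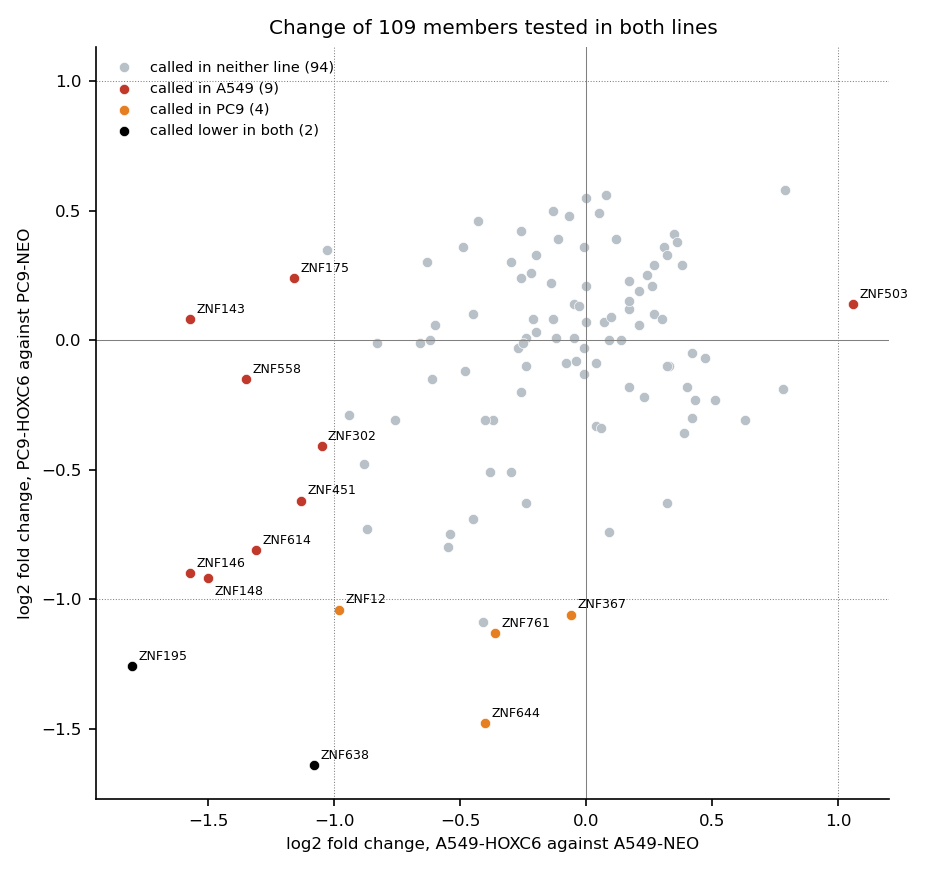
Log2 fold change with HOXC6 in A549 (horizontal axis) against that in PC9 (vertical axis), 1 point per member tested in both lines (109). Dotted lines mark a size of 1. ZNF195 and ZNF638 lie beyond -1 on both axes, and ZNF143, ZNF558 and ZNF175 beyond -1 in A549 but near 0 in PC9.

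The medians over the members lay near those of all genes. The median log2 fold change of the members tested was -0.13 in A549, against -0.00 over all genes, and -0.02 in PC9, against -0.00. The A549 median stayed below 0 under each alternative, while that of PC9 ran from -0.10 with scaling by library size only to 0.01 without PC9-HOXC6 replicate 2. With scaling by library size only, the median of all genes moved to -0.05 in A549, -0.09 in PC9 and -0.10 in the comparison of the empty-vector lines.

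Set against genes of matched level, the share of members called lower was above that of the other genes in each tertile of level in A549 and in the lowest tertile in PC9. In the lowest tertile of mean level (under 24.8 CPM) in A549, 8 of 66 members were lower (12.1%) with a median log2 fold change of -0.21, against 257 of the 2857 other genes of that tertile and -0.14. In the middle tertile, 3 of 35 members were lower (8.57%) with a median of 0.00, against 5.26% and -0.03. In the highest tertile (over 72.3 CPM), 1 of 16 members was lower (6.25%) with a median of 0.14, against 2.13% and 0.10. In PC9 the lowest tertile had 8 of 71 members lower (11.3%) and a median of -0.15, against 7.02% and -0.12 for the other genes, and the middle and highest tertiles had 1 of 38 (2.63%) and 0 of 15, against 3.07% and 0.501%. After the GC and length correction described next, the order turned in the lowest tertile, where 2 of 65 members were lower in A549 (3.08%) and 1 of 71 in PC9 (1.41%), against 4.41% and 3.29% of the other genes. In the middle and highest tertiles 2 of 36 and 1 of 16 members were then lower in A549, against 1.56% and 0.791%, and 1 of 38 and 0 of 15 in PC9, against 1.19% and 0.0716%. These shares are given with no test.

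GC content moved with the changes. Across members, Spearman's correlation of the log2 fold change with the GC content of the transcript was 0.682 in A549 (117 members) and 0.493 in PC9 (124 members), against 0.529 and 0.528 over the other genes. The points share libraries and differ in level as well as in composition. In the lowest tertile of GC content (under 43.8%) in A549, 33 of 35 members were below 0, the median was -0.55 and 11 were called lower (31.4%), where 13.8% of the other genes of that tertile were called lower with a median of -0.44. In the highest tertile (over 54.5%) 0 of 34 members were lower and the median was 0.19. In PC9 the lowest tertile held 8 of the 9 members called lower, and 265 of the 291 other genes called lower, so most calls lay there in both sets. After each library was corrected for smooth trends with GC content and transcript length, 5 members were lower and 0 higher in A549, where 2.27% of all genes were lower and 1.43% higher. In PC9, 2 were lower and 0 higher, where 1.51% of all genes were lower and 0.701% higher. Within the lowest tertile of GC content, 5 of 35 members were then lower in A549 (14.3%, median -0.32), against 2.97% and -0.04 for the other genes. For PC9 that tertile had 2 of 41 members lower (4.88%, median -0.17), against 3.46% and 0.00. The members that stayed past the thresholds were ZNF195, ZNF182, ZNF143, ZNF146 and ZNF558 in A549 and ZNF638 and ZNF268 in PC9. By these thresholds 0 members were lower in both lines in the corrected fit, where 0.176% of all genes tested in both were. The part of GC content in the changes was not tested beyond this correction.

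**Figure D3:**
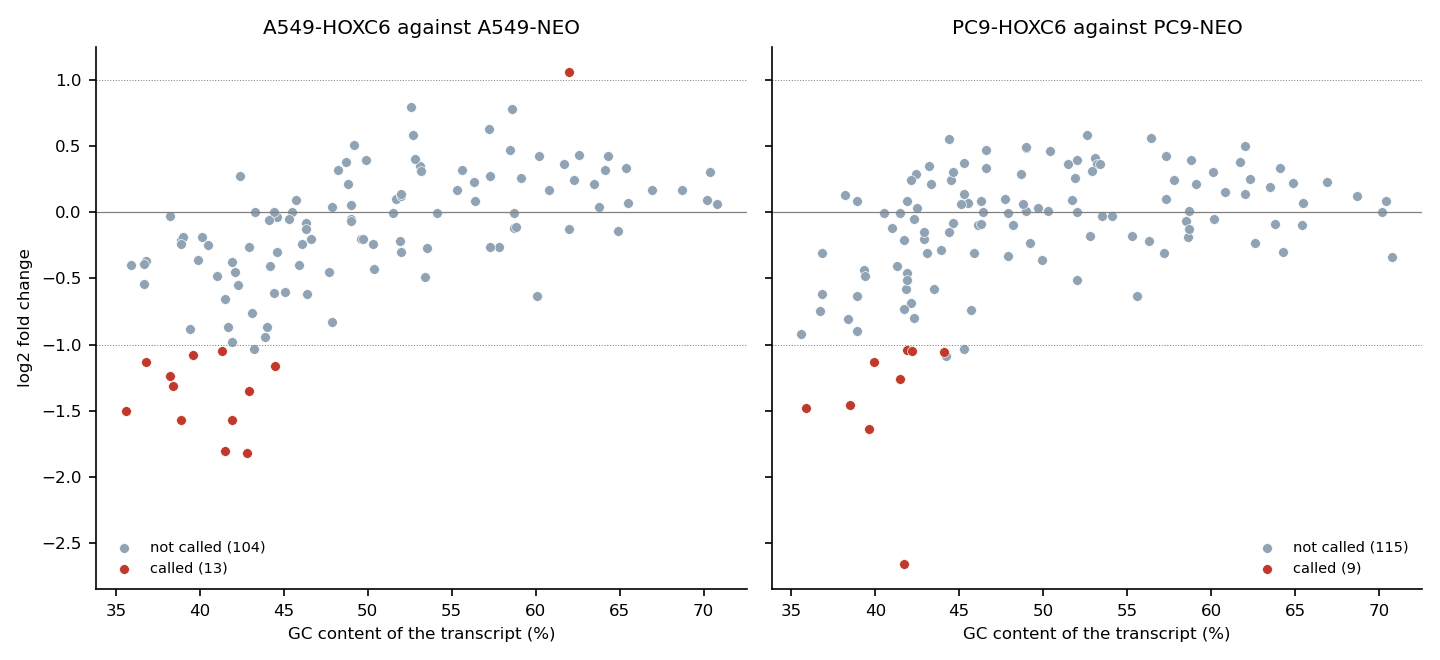
Log2 fold change with HOXC6 (vertical axes) against GC content of the canonical transcript in percent (horizontal axes), 1 point per member tested, for A549 (left, 117) and PC9 (right, 124). Dotted lines mark a size of 1. The members called lower lie at GC contents of 44.5% or less, and the member called higher in A549 lies at 62.0%.

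By domain, 6 of 44 KRAB members tested in A549 were lower (13.6%, median log2 fold change -0.28), 0 of 11 members with SCAN and no KRAB (median 0.17), and 6 of 62 with neither (9.68%, median -0.12). In PC9 the numbers were 6 of 51 KRAB members (11.8%, median -0.09), 0 of 9 (0.07) and 3 of 64 (4.69%, -0.01). The median GC content of the tested members in A549 was 44.6% with KRAB, 55.3% with SCAN and 52.0% with neither, so the order of the medians in A549 followed that of GC content. After the correction the A549 medians were -0.16, -0.08 and -0.08. By the thresholds 3 of 44, 0 of 11 and 2 of 62 were then lower in A549, against 2.27% of all genes. In PC9 the corrected medians were -0.10, -0.14 and -0.04. There 1 of 51 (1.96%), 0 of 9 and 1 of 64 (1.56%) were lower, against 1.51% of all genes. On chromosome 19, 5 of 40 members were lower in A549 and 1 of 45 in PC9, against 1.84% and 0.179% of the other genes of that chromosome, whose median GC content among those tested in A549 was 61.2%, against 44.8% for the members. After the correction 2 of 40 members were lower in A549, against 2.34% of the other genes, and 0 of 45 in PC9, against 0.179%. Zinc finger genes of other names (ZFP, ZSCAN, ZKSCAN, ZBTB and KLF) had 1 of 31 lower in each line, and 0 of 31 after the correction.

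The functional lists followed the roles of the proteins. Their counts stand against the shares over all genes given above, 5.51% lower by the thresholds and 20.7% lower at any fold in A549, and 3.56% and 14.2% in PC9. The lists themselves were not tested. Among the 8 promoter-binding factors tested, 2 were lower in A549 (ZNF143 and ZNF148) and 0 in PC9, with medians of -0.16 and -0.08, where the median of all genes was -0.00 in both. ZNF281, a relative of ZNF148 that takes part in keeping stem cells undifferentiated, passed the test below the size of 1 in both lines. It had 90.2, 88.0 and 87.6 CPM in A549-NEO against 57.1, 46.2 and 43.9 in A549-HOXC6, and 68.6, 76.5 and 92.9 against 46.8, 52.4 and 46.4 CPM in PC9. Its groups were separate in both lines, with log2 fold changes of -0.87 (adjusted p = 1.08e-05) and -0.73 (adjusted p = 0.000114), and the correction left -0.55 and -0.52 past the edgeR test.

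Among the 7 members of chromatin complexes, 0 were lower by the thresholds in A549 and 1 (ZNF644) in PC9, and the medians were -0.40 and 0.07. Without the fold criterion, 3 were lower in A549 (ZNF827, ZNF462 and ZNF516), at log2 fold changes of -0.83, -0.62 and -0.49 (adjusted p = 0.0456, 0.0434 and 0.0395) in edgeR's test. For PC9 at any fold, 1 was lower (ZNF644) and 2 were higher (ZNF516 and ZNF592), where 13.3% of all genes were higher. ZNF592 was at 0.39 in PC9 (adjusted p = 0.00522), with separate groups, and at 0.32 after the correction (adjusted p = 0.0266). ZNF516 was the member past the test in opposite directions. It had 37.5, 40.2 and 33.0 CPM in A549-NEO against 32.8, 23.1 and 23.0 in A549-HOXC6, and 76.7, 99.2 and 109 against 131, 121 and 117 CPM in PC9 (log2 fold change 0.36, adjusted p = 0.0144). The difference between the lines was -0.80 (adjusted p = 0.00604), short of a size of 1. ZNF516 in A549 did not pass with DESeq2 or in 4 of the 6 fits without a library (A549-NEO replicate 1 or 2, A549-HOXC6 replicate 2 or 3), and in PC9 not with scaling by library size only or without PC9-NEO replicate 1 or PC9-HOXC6 replicate 1. ZNF827 and ZNF462 did not pass with DESeq2 or with the correction (adjusted p = 0.0511 and 0.144). ZNF827 also did not pass in 5 of those 6 A549 fits, all but the one without A549-HOXC6 replicate 1, and ZNF462 in 3, those without A549-NEO replicate 1 or 3 or A549-HOXC6 replicate 2.

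Of the 8 tested members that serve RNA, ribosomes or the spindle, ZNF638 was the member called by the thresholds in either line, and the medians were -0.45 in A549 and -0.12 in PC9. ZNF330, a nucleolar protein, ZNF106, an RNA-binding protein, and ZNF207, a spindle assembly factor, passed the test below the size of 1 in A549 (log2 fold changes -0.66, -0.61 and -0.37, adjusted p = 0.0131, 0.0191 and 0.00798). ZNF330 and ZNF106 did not pass with the correction (adjusted p = 0.0999 and 0.175), nor without A549-HOXC6 replicate 3 or, for ZNF330, A549-NEO replicate 2 and, for ZNF106, A549-NEO replicate 1 or 3. ZNF106 also did not pass with DESeq2. ZNF207 reversed in A549 with the correction, to 0.41 (adjusted p = 0.000944). Of the lineage and cancer genes, 2 were tested in A549, with ZNF503 higher and ZNF331, a KRAB gene, at a log2 fold change of -0.94 (adjusted p = 0.000665), from 34.7, 45.0 and 52.6 to 25.1, 30.8 and 16.6 CPM. Of the repeat-silencing KRAB list, ZNF268 was the member with counts for a test.

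The partners through which KRAB proteins act are not members and were read from a list of their own. All 14 in the table were tested in each line. In A549, 2 were lower by the thresholds and 0 higher, and without the fold criterion 5 were lower and 3 higher. In PC9 these numbers were 2, 0, 6 and 1. The shares over all genes are those given above for the lists. ATRX, a remodeller that keeps repeats in heterochromatin, fell in both lines, by 1.65 on the log2 scale in each (adjusted p = 2.83e-06 and 6.59e-07), and SMARCAD1, a remodeller of silent chromatin, by 1.11 and 1.34 (adjusted p = 0.00815 and 0.00346; edgeR's quasi-likelihood test). TRIM28, the corepressor itself, was at 1160 ± 42.7 CPM in A549-NEO and 1538 ± 190 in A549-HOXC6 (log2 fold change 0.36, adjusted p = 0.000342), and at 1667 ± 51.4 and 1767 ± 46.8 in PC9 (0.09, adjusted p = 0.231). HDAC1 rose in A549 by 0.74 (adjusted p = 3.41e-06) and in PC9 by 0.20 (adjusted p = 0.0309). CBX3 and TASOR passed the test lower in both lines, below the size of 1. DNMT1 passed in opposite directions, at 0.44 in A549 and -0.28 in PC9 (adjusted p = 0.00278 and 0.00491). After GC and length correction ATRX was at -0.92 and -1.06 and still passed the test (adjusted p = 0.000636 and 0.000524), while SMARCAD1, at -0.54 and -0.87, passed in neither line (adjusted p = 0.219 and 0.0720). TRIM28 was then at 0.13 in A549 (adjusted p = 0.0233) and -0.12 in PC9 (adjusted p = 0.0574). HDAC1 was at 0.53 in A549 (adjusted p = 7.24e-06) and no longer passed in PC9 (0.07, adjusted p = 0.524). SETDB1, which had not passed in A549 before the correction (-0.23, adjusted p = 0.161), was then at -0.38 (adjusted p = 0.0103). CBX3 and TASOR then passed in PC9 alone (adjusted p = 0.0191 and 0.0293).

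The third comparison set the empty-vector lines against each other, with the log2 difference as A549-NEO minus PC9-NEO. The lines were kept in different media, so line and medium cannot be told apart here. Of 132 members tested, 25 were lower and 15 higher in A549-NEO by the thresholds, 18.9% and 11.4%, where 16.4% of the 9076 genes tested were lower and 19.6% higher (edgeR's quasi-likelihood test). The median over members was -0.11, against 0.02 over all genes. Several members were near absent from 1 of the lines.

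ZNF711, an X-linked activator mutated in intellectual disability, was counted 28, 26 and 39 times in A549-NEO and was at 0 in every PC9-NEO library. Against the floor of 3 counts per library this is at least 8.06-fold higher, and ZNF711 had 12, 12 and 5 counts in A549-HOXC6 and 0 in every PC9-HOXC6 library. ZNF83, a zinc finger gene of chromosome 19, showed the reverse, with 0 counts in every A549-NEO library and 14, 12 and 34 in PC9-NEO, at least 8.18-fold lower in A549-NEO. In the HOXC6 libraries ZNF83 had 0, 0 and 1 counts in A549 and 22, 3 and 32 in PC9. For both genes edgeR's test passed (adjusted p = 6.42e-10 and 7.02e-09).

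ZNF618 had 123, 121 and 121 counts in A549-NEO against 1, 3 and 2 in PC9-NEO, at least 31.5-fold higher in A549-NEO against the floor. ZNF287, a SCAN protein, had 17, 38 and 22 counts against 0, 0 and 1, at least 6.77-fold higher. ZNF319 was higher at well measured levels in both lines, at 130 ± 11.1 CPM against 38.0 ± 6.89 (SD, n = 3), a log2 difference of 1.82 (SE 0.122, adjusted p = 6.86e-16), and ZNF18 by 1.69 (adjusted p = 2.75e-05). None of these groups overlapped.

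In the other direction, ZNF750, a regulator of squamous epithelial differentiation, had 1, 2 and 1 counts in A549-NEO against 13, 27 and 27 in PC9-NEO, at least 9.36-fold lower in A549-NEO. ZNF704 stood at 3.50 ± 0.676 CPM in A549-NEO and 60.1 ± 3.98 in PC9-NEO, a log2 difference of -4.03 (adjusted p = 5.42e-18), ZNF365 at 1.06 ± 0.918 and 10.9 ± 4.57 (-3.36, adjusted p = 4.59e-07) and ZNF132, a KRAB gene, at 4.73 ± 1.21 and 39.2 ± 6.50 (-3.00, adjusted p = 3.53e-13; SD, n = 3). These members were separate between the lines as well.

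**Figure D4:**
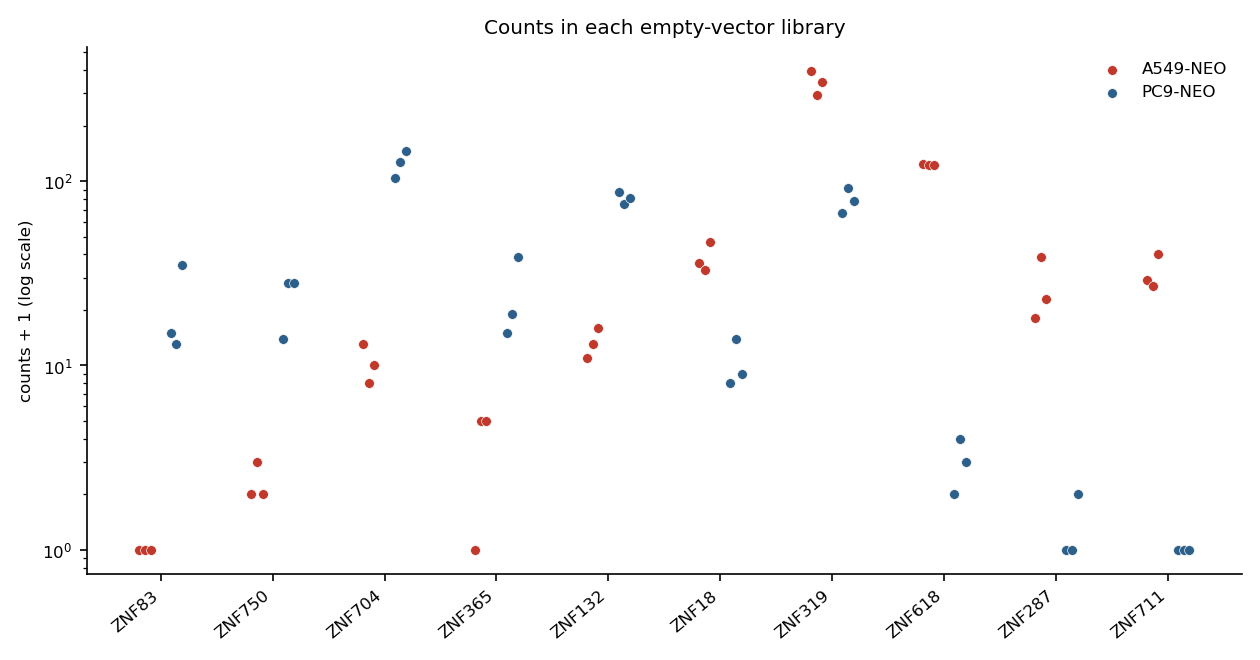
Counts plus 1 (vertical axis, log scale) of the 5 members with the largest called difference in each direction between A549-NEO and PC9-NEO, 1 point per library. ZNF83 has 0 counts in every A549-NEO library and ZNF711 in every PC9-NEO library.

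Neighbouring members near the end of chromosome 19 lay lower together in A549-NEO. The members of this chromosome were put into 14 blocks wherever neighbouring members lay more than 1 Mb apart, a division made after the values were seen that counts the members of the table alone. The last block, from 57702868 to 58992597 of GRCh37, holds 16 members, 14 of them with KRAB. Of the 15 tested, 15 lay below 0 and 7 were lower in A549-NEO by the thresholds (ZNF304, ZNF549, ZNF776, ZNF586, ZNF606, ZNF132 and ZNF324), 0 were higher, and the median log2 difference was -0.98. The lowest was ZNF132 and the one nearest to 0 was ZNF446 at -0.29. Of all genes tested, 49.4% lay below 0, as did 47.2% of the other genes of chromosome 19. All tested members of the block also lay below 0 under each alternative scaling, filter, model and correction and with each of the 6 libraries left out, where the member nearest to 0 was at -0.13. These fits reuse the libraries in which the block was seen, so they are not separate evidence for it. The 3 other genes tested within its bounds had a median of -0.36, with 0 lower and 1 higher. Low values were not particular to this block. The block before it, from 56598732 to 56672262, had 2 of 2 tested members lower and a median of -1.30. The next one back, from 52074536 to 54083523, had 3 of 5 lower and 1 higher, with a median of -1.28.

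By contrast, the 9 tested members of the block from 44100544 to 45004576, 7 of whose 10 members carry KRAB, had a median of 0.38, with 0 lower and 1 higher. Over the whole chromosome 14 of 47 members were lower in A549-NEO (29.8%) and 6 higher, against 15.5% lower and 25.0% higher among its other 608 genes, and elsewhere in the genome 11 of 85 members were lower (12.9%) and 9 higher. In the HOXC6 comparisons, 0 of 13 members tested in the last block were called in A549 and 0 of 15 in PC9, with medians of 0.05 and 0.06. At any fold its values in the HOXC6 comparisons lay on both sides of 0, with 6 of 13 and 7 of 15 below.

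**Figure D5:**
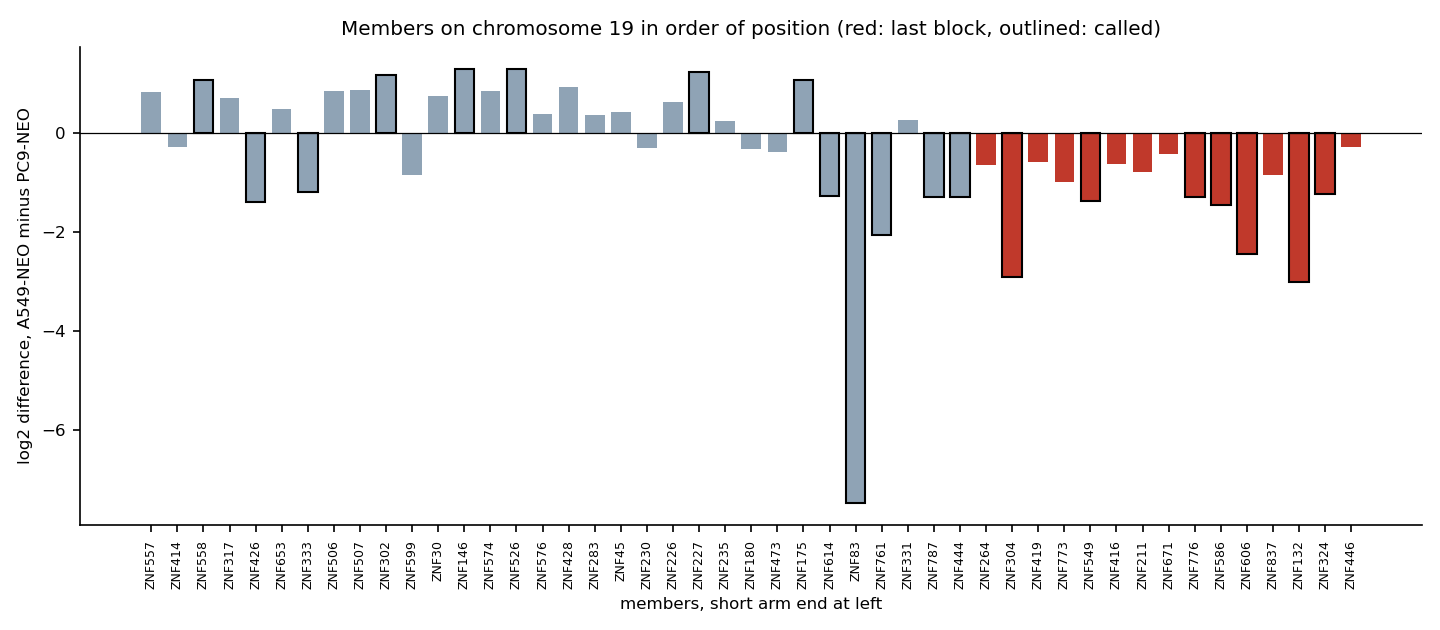
Log2 difference between A549-NEO and PC9-NEO (vertical axis) of the 47 members tested on chromosome 19, in order along the chromosome (horizontal axis). Outlined bars passed the thresholds and red bars are the last block, where 15 of 15 bars lie below 0.

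The last comparison asked whether the change with HOXC6 differed between the lines, by an interaction term fitted on all 12 libraries. Of 134 members tested, 6 passed (4.48%), where 5.15% of the 9229 genes tested did (edgeR's quasi-likelihood test). After GC and length correction 5 members passed, where 5.18% of all genes did. The difference is given as the log2 fold change in A549 minus that in PC9.

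ZNF143 had 24.9, 15.1 and 19.1 CPM in PC9-NEO against 17.4, 28.8 and 18.6 in PC9-HOXC6, and its PC9 groups overlapped with each other and with A549-HOXC6, while A549-NEO lay above all of them. The difference of its changes was -1.60 (SE 0.295, adjusted p = 9.79e-05). ZNF558 had 16.8, 19.6 and 17.0 CPM in PC9-NEO against 16.4, 10.3 and 18.9 in PC9-HOXC6, a difference of -1.16 (SE 0.337, adjusted p = 0.0122). The HOXC6 comparison in A549 and that of the empty-vector lines share the A549-NEO libraries, and both genes were higher in A549-NEO than in PC9-NEO, by 1.66 and 1.08 on the log2 scale. ZNF558 fell short of the thresholds without A549-NEO replicate 2 or PC9-HOXC6 replicate 3.

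ZNF268 had a difference of 3.31 (SE 0.868, adjusted p = 0.00496), with its fall in PC9 and low counts in A549 given above. DESeq2 did not call this difference. ZNF365, a protein of centrosomes and DNA repair, had 0, 4 and 4 counts in A549-NEO against 17, 4 and 8 in A549-HOXC6, and 7.57, 9.06 and 16.1 CPM in PC9-NEO against 8.20, 13.3 and 12.8 in PC9-HOXC6. The difference was 2.19 (SE 0.717, adjusted p = 0.0264), and it did not pass in 4 of 12 fits without a library, those without A549-NEO replicate 1, A549-HOXC6 replicate 1, PC9-NEO replicate 3 or PC9-HOXC6 replicate 1. ZNF365 shares 1261 exon bases with another gene on its strand.

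ZNF618 rose in A549 from 42.7, 48.6 and 47.5 to 78.2, 65.9 and 67.4 CPM (log2 fold change 0.58, adjusted p = 0.00158), while PC9 went from 1, 3 and 2 counts to 0 in every library. The fitted difference of 4.81 (SE 1.36, adjusted p = 0.0102) rests on PC9 groups that are both at or under the floor, so its size is not a measured fold. ZNF362 had 10.1, 14.5 and 18.9 CPM in A549-NEO against 24.4, 24.8 and 27.3 in A549-HOXC6, and 32.4, 20.1 and 25.9 against 23.6, 18.4 and 24.7 CPM in PC9. Its difference of 1.02 (SE 0.319, adjusted p = 0.0197; edgeR) lay just past the threshold, and ZNF362 shares 1345 exon bases with another gene on its strand. It was short of the thresholds with DESeq2, with RLE size factors, with the correction, and without A549-NEO replicate 1, A549-HOXC6 replicate 3, PC9-NEO replicate 1 or PC9-HOXC6 replicate 2.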

How the data were processed

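RNA was measured in 12 libraries, 3 for each of A549-NEO, A549-HOXC6, PC9-NEO and PC9-HOXC6, which were grouped by their titles. The deposited values are raw read counts per gene, made by the authors with HISAT2 (2.1.0) on GRCh37.p13 and HTSeq (0.9.1) after bcl2fastq (2.19), per the submitters' processing notes. The strand setting and annotation release are not given in the sources used here. The table of 12584 genes was used as given, except 1 incomplete line. Symbols, coordinates, GC content, lengths and translated proteins came from a GENCODE annotation on GRCh37 for 12463 genes. Proteins were translated from it because no RefSeq protein table was used here.

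Each comparison was fitted on all genes with edgeR (4.0.16, R 4.3.3), with TMM scaling, filterByExpr and the quasi-likelihood test with Benjamini-Hochberg adjustment over all genes tested. A call needed both an adjusted p below 0.05 and a size of the log2 fold change over 1. A fold against a group at or below 3 counts was computed against that floor per library. The differences of change between lines came from 1 model over 12 libraries. Trends on GC content and length were fitted per library with mgcv (1.9.3). Scripts were tested on simulated data. Total counts of 1212053 to 3286577 per library limit precision for genes of few counts.

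Genes were named by a rule: in each HOXC6 comparison the 6 called members with the largest change in each direction whose groups did not overlap, members called in both lines, the 5 called members with the largest difference in each direction for the empty-vector lines and for the difference between lines, the 6 highest per kilobase in each line, the pairs next to the count minimum, and up to 4 members past the test in each functional list. ZNF185 and ZNF592 were named outside this rule, as members that rose past the test, and are not in the counts of alternatives below. The members and lists were chosen with earlier results of these data known. Replicate numbers are shared between groups, and libraries with the same number had deviations that correlated by -0.0461 to 0.0469, so the numbers were not taken to pair them. Alternatives were DESeq2 (1.42.0), RLE and library size scaling, other count filters and thresholds, a replicate block, the GC content and length correction, 1 model for all libraries, and leaving out each library.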

Additional observations from a re-analysis of the deposited data

Results flagged for a closer look

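The change with HOXC6 differed between A549 and PC9 for 6 members by the interaction term (edgeR's quasi-likelihood test over 12 libraries), given as the log2 fold change in A549 minus that in PC9. These were 4.48% of the 134 members tested, where 5.15% of all genes tested differed by the same rule. ZNF143 had a difference of -1.60 and ZNF558 of -1.16, with the fall in A549. ZNF268 had a difference of 3.31, with the fall in PC9 and under 8 counts in each A549 library, and DESeq2 did not call it. ZNF365 had a difference of 2.19 and ZNF362 of 1.02, with mean levels higher in A549-HOXC6 than in A549-NEO. ZNF618 had a difference of 4.81, fitted on PC9 groups that were both at or under 3 counts per library. Of the 12 fits without a library, the call was lost in 4 for ZNF365, in 4 for ZNF362 and in 2 for ZNF558.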

How the results depend on the processing

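Depth limits the members of low level: with at least 10 counts required in every library, 7 members were lower in A549 and 4 in PC9, 15 lower and 9 higher in A549-NEO than PC9-NEO, 3 differed between the lines, and the A549 median was -0.04. The correction for GC content and length left 5 lower and 0 higher in A549, 2 lower in PC9, 0 in both lines and a PC9 median of -0.06, and with the replicate block 4, 0, 2 and 0. ZNF207 reversed with this correction, to 0.41 in A549 and 0.33 in PC9, and to 0.41 and 0.32 with the block. DESeq2 called 5 lower in PC9 and 1 in both lines. Scaling by library size only gave 4 in both lines and a PC9 median of -0.10. Without a filter 2 were higher in A549 and 4 lower in both lines, the same numbers as with 1 model over 12 libraries. At an adjusted p under 0.01, 1 was lower in both lines and 2 differed between the lines. Without the fold criterion 25 were lower and 9 higher in A549, 17 and 8 in PC9, 8 lower in both, 44 lower and 35 higher in A549-NEO, and 16 differed between the lines. The cause of these shifts was not tested.

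With each library left out, members lower in A549 numbered 10 to 15, higher in A549 0 to 2 (0 without A549-HOXC6 replicate 3, 2 without A549-NEO replicate 3), lower in PC9 4 to 8 (4 without PC9-HOXC6 replicate 1), higher in PC9 0 to 0, and lower in both 1 to 4 (4 without A549-NEO replicate 3, 1 without PC9-NEO replicate 3 or PC9-HOXC6 replicate 2). Members lower in A549-NEO than PC9-NEO numbered 26 to 31, higher 14 to 17, and differing between the lines 4 to 9. The medians ran from -0.17 to -0.10 in A549 and from -0.09 (without PC9-NEO replicate 3 or PC9-HOXC6 replicate 3) to 0.01 in PC9. The replicate block alone gave 12 lower and 1 higher in A549, 7 and 0 in PC9, 2 in both lines, 25 and 15 between the empty-vector lines and 6 differing between the lines, and the numbers did not pair the libraries. Of 351 values of named members under the other alternatives, 310 kept direction and call, 37 kept direction and lost the call, and 4 reversed. Fits that gave a member no adjusted p are not among these values. Of 288 with a library left out, 245 kept direction and call and 43 lost the call.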
